A study of Mus musculus with 24 samples.

Results

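The genes described here carry out fatty acid oxidation in mitochondria and peroxisomes: 32 genes of the 38013 that both deposited count tables hold. They were taken by gene symbol as the genes of fatty acid activation, the carnitine shuttle and beta oxidation, and all 32 were found in both tables. Of them, 20 code for proteins of the mitochondrial route and 7 for peroxisomal proteins. The other 5 (Acsl1, Acsl5, Eci2, Acot1 and Ppara) act outside the organelles, in both of them or in the nucleus, and were placed in neither class.

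RNA was sequenced from whole inguinal subcutaneous white adipose tissue of C57BL/6J mice with a transgene that codes for the γ1 subunit of AMPK (AMP-activated protein kinase), an energy-sensing kinase. The controls were transgenic too: the transgene was the wild-type γ1 subunit in WT-Tg mice and its gain-of-function form D316A in D316A-Tg mice. Each genotype was studied on chow at 16 weeks of age and on a 45% high-fat diet (HFD) at 24 weeks, with 6 libraries in each of the 4 groups. Libraries are numbered as in their titles, WT-Tg from 1 to 6 and D316A-Tg from 7 to 12, on each diet anew. The sources used here do not name the promoter of the transgene or the number of lines. The labels do not say whether the 6 libraries of a group are 6 animals. The p-values below therefore describe the spread between these samples, which may be technical.

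Fatty acids are first joined to coenzyme A by acyl-CoA synthetases. Long-chain acyl groups are then carried into mitochondria by the carnitine shuttle, where carnitine palmitoyltransferase 1 is the controlled step: malonyl-CoA inhibits it, and AMPK lowers malonyl-CoA by inactivating acetyl-CoA carboxylase. Inside, each turn of the beta oxidation spiral removes an acetyl unit and hands electrons to the respiratory chain, while peroxisomes shorten very long and branched chains by a separate set of enzymes. Many of these genes are known targets of the nuclear receptor PPARα, which binds DNA with RXR at repeats of the hexamer AGGTCA. White adipocytes mainly store fatty acids, and brown and beige adipocytes oxidise them for heat.

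Hadha and Hadhb, the α and β subunits of the mitochondrial trifunctional protein, are transcribed away from each other, with 85 bases between the outermost ends of the genes in GENCODE M21. The starts behind the RefSeq promoter windows, at 30154980 for Hadha and 30155253 for Hadhb, differ from those ends and have 272 bases between them. Their shared stretch is shown because the pair moved together between genotypes and apart between diets. Hadha lies at chr5:30118304-30155162 on the minus strand and Hadhb at chr5:30155248-30184593 on the plus strand (GENCODE M21, GRCm38). The 85 bases between the GENCODE ends, chr5:30155163-30155247, are given 5′ to 3′ on the plus strand from RefSeq on GRCm38.p6. Capitals mark the 68 bases that lie in the promoter windows of both genes, and the GC content of the stretch is 69.4%.
Hadha-Hadhb: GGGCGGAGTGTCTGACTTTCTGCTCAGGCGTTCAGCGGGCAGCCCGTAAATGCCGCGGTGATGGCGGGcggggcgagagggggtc

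RefSeq promoter windows, running from 250 bases before a start to 50 after it on GRCm38.p6, were matched for 26 of the 32 members by symbol and gave 28 windows. The hexamer AGGTCA, searched on both strands, was in 4 of the 28 (14.3%) and in 16.3% of all 32851 windows of the same length. The windows holding it belong to Acadm, Acadvl, Cpt1a and Echs1, and a stretch around each is printed on the strand of its gene, with the hexamer or its reverse complement in capitals. These 4 are shown because they include Cpt1a, the member whose values moved against the others. Relative to the start, the first base of the hexamer is at position -249 in Acadm (chr3:153944860-153944893), -87 in Acadvl (chr11:70015483-70015542), -94 in Cpt1a (chr19:3323180-3323239) and -83 in Echs1 (chr7:140116472-140116531).
Acadm: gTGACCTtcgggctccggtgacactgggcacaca
Acadvl: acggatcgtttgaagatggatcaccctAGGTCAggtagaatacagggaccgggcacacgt
Cpt1a: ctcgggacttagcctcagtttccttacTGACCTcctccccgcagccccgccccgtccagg
Echs1: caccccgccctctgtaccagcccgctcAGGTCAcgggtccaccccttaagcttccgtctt

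Longer motifs that contain the hexamer were not found in the 28 member windows. The extended site TCAAGGTCA was in 0.423% of all windows and the direct repeat AGGTCANAGGTCA in 0.0396%. A looser repeat, AGGNCANAGGNCA, was in 0.381% of them. The median GC content was 60.5% in member windows and 52.7% in all windows. A match is a stretch of letters and not a measured binding site, and these windows do not cover introns or distant elements.

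Library totals ran from 13254536 to 22748132 counts, so that 1 count was worth less than 0.1 CPM, the unit used here for counts scaled to a common library size after TMM adjustment, and the score of a list in a library is the average log2 CPM over its genes. Adipoq, the adipocyte hormone adiponectin, was at 1167 CPM or above in all 24 libraries. Other cell types differed between libraries of 1 group: B lymphocyte genes were abundant in 4 WT-Tg and 2 D316A-Tg libraries on chow and in 1 WT-Tg and 4 D316A-Tg libraries on HFD, although the lymph node was removed at dissection per the labels. The skeletal muscle score ranged from -0.58 to 6.23 on chow and from -0.15 to 7.61 on HFD. In such bulk tissue, fewer cells of a type and less RNA per cell cannot be told apart.

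Per length of exon, the members spanned 3 orders of magnitude in the WT-Tg chow libraries. Etfb, a subunit of the electron transfer flavoprotein, had the highest median at 217 CPM per kb. Acadl, the long-chain acyl-CoA dehydrogenase, followed at 206 CPM per kb and Acaa2, the mitochondrial thiolase, at 149.9 CPM per kb. The shuttle enzyme Cpt1a was far lower, at 7.61 CPM per kb, and Ppara, which codes for PPARα, was at 2.34 CPM per kb. Cpt1b, the muscle form of carnitine palmitoyltransferase 1, was at 0.54 CPM per kb and the cytosolic thioesterase Acot1 at 0.17 CPM per kb. Taking the longest transcript in place of all exons moved 12 of the 32 values by more than the spread between libraries, with Etfb highest and Acot1 lowest either way.

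Several members share sequence or exons with other genes, and the sources used here do not say whether reads were counted by strand. The open reading frames of Acaa1a and Acaa1b are 96.5% identical, with an identical run of 327 bases, and those of Acot1 and Acot2 are 95.5% identical. Reads could therefore be split between the genes of each pair. Annotated exons of other genes cover 81.4% of Cpt1b, 58.2% of Etfb and 42.9% of Acadvl. The gene over Cpt1b, Gm44502, and the main one over Etfb, Gm45233 (53.0%), are in neither count table, so their counts are not known. For Acadvl that gene is Dvl2 on the opposite strand, which had 3504 counts on chow beside 99404 for Acadvl. The values of these genes are uncertain to that extent.

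**Figure D1:**
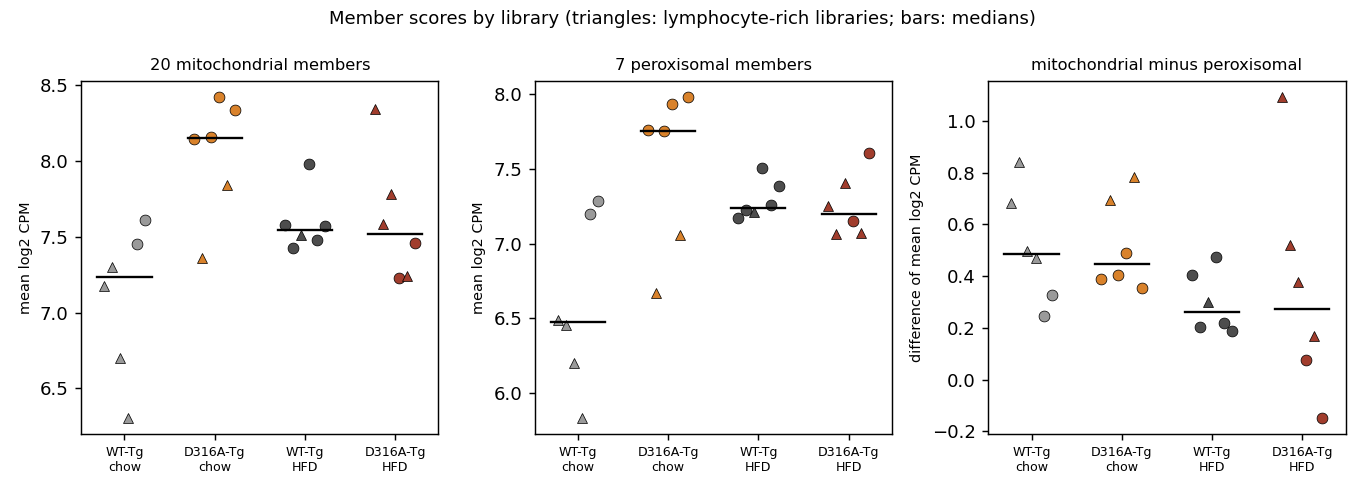
Mean log2 CPM of the 20 mitochondrial members (left), of the 7 peroxisomal members (middle) and their difference (right) in each of the 24 libraries, by group. Bars are group medians and triangles are lymphocyte-rich libraries. On chow the D316A-Tg medians are 8.15 and 7.75 against 7.24 and 6.47 in WT-Tg, while on HFD the groups lie together.

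On chow, 11 of the 32 fatty acid oxidation genes rose in D316A-Tg compared with WT-Tg tissue, none fell, and the fitted change was positive for 31. The genes that rose were spread over the pathway: the carnitine carrier Slc25a20, the dehydrogenases Acadl and Acadvl, both subunits of the trifunctional protein, the auxiliary enzymes Eci1 and Decr1, the electron acceptor Etfdh, the peroxisomal Ehhadh and Abcd3, and Ppara. Each of these 11 was between 1.98-fold and 2.76-fold higher. Cpt1a alone had a negative value.

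Over all 15249 genes tested in this comparison, 5.30% were called higher and 3.25% lower, by the quasi-likelihood F test of edgeR at a Benjamini-Hochberg adjusted p below 0.05. The median log2 fold change was 0.90 for mitochondrial members, of which 8 of 20 rose, and 0.78 for peroxisomal members, of which 2 of 7 rose, beside -0.07 for all genes. At an unadjusted p under 0.05, 29 members were higher and 1 lower. The share of all genes at that level was not counted, here or in the comparisons below. DESeq2 called 24 higher and 1 lower, and limma voom 28 higher and 1 lower. Of the 15249 genes DESeq2 called 2977 and voom 10826, in either direction.

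Values of a group are given below as its lowest, median and highest library. The mitochondrial score was 6.31, 7.24 and 7.61 in WT-Tg on chow and 7.36, 8.15 and 8.42 in D316A-Tg. The peroxisomal score was 5.84, 6.47 and 7.28 in WT-Tg and 6.67, 7.75 and 7.98 in D316A-Tg. For both scores the median D316A-Tg library lay above every WT-Tg library, and the ranges of the groups overlapped. A few libraries set the extremes of most members. WT-Tg library 4 was the lowest of its group for 28 of 32 members and library 6 the highest for 19, while D316A-Tg library 8 was the lowest for 27 and library 10 the highest for 20.

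Activation was represented by 2 synthetases. Acsl1, the main long-chain acyl-CoA synthetase of adipocytes, was at 527, 1423 and 2325 CPM in WT-Tg on chow and at 1310, 3275 and 4349 CPM in D316A-Tg. The upper 4 D316A-Tg libraries were above every WT-Tg library, but libraries 8 and 11 were not. The log2 fold change of Acsl1 was 1.06 (SE 0.34, adjusted p = 0.0702). Acsl5, also a synthetase, had a value of 0.30 (adjusted p = 0.153).

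In the carnitine shuttle 1 of 5 members rose. Slc25a20, the carrier that exchanges acylcarnitine for carnitine across the inner membrane (chr9:108662088-108684641), was at 38.5, 77.3 and 99.6 CPM in WT-Tg on chow and at 95.7, 174 and 214 CPM in D316A-Tg. Only D316A-Tg library 8 fell within the WT-Tg range. Slc25a20 rose by 1.12 on the log2 scale (SE 0.22, adjusted p = 0.0193). The inner-membrane transferase Cpt2 (0.93, adjusted p = 0.0572) and carnitine acetyltransferase Crat (0.87, adjusted p = 0.0721) had positive values short of the threshold, as had Cpt1b (0.81, adjusted p = 0.136).

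Cpt1a, the outer-membrane transferase of most tissues and the entry step of the route (chr19:3322334-3385733), ran the other way. It was at 48.2, 58.1 and 67.2 CPM in WT-Tg on chow and at 25.4, 37.6 and 55.0 CPM in D316A-Tg. Of the 6 D316A-Tg libraries, 5 lay below every WT-Tg library. The log2 fold change was -0.64 (SE 0.20), and its adjusted p of 0.0622 missed the threshold. The median ratio of Cpt1a to Cpt2 CPM was 0.362 in WT-Tg and 0.0973 in D316A-Tg on chow.

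The acyl-CoA dehydrogenases open each turn of the spiral and differ in the chain length they take. Acadl was at 206, 413 and 544 CPM in WT-Tg on chow and at 472, 902 and 1055 CPM in D316A-Tg. It rose by 1.01 on the log2 scale (SE 0.24, adjusted p = 0.0312). Acadvl, for very long chains, was at 174, 375 and 450 CPM in WT-Tg and at 436, 772 and 986 CPM in D316A-Tg, and rose by 1.08 (SE 0.24, adjusted p = 0.0260). For both genes 5 of the 6 D316A-Tg libraries were above every WT-Tg library. Medium-chain Acadm (0.84, adjusted p = 0.0570) and short-chain Acads (0.81, adjusted p = 0.0688) were not called.

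Of the 5 members of the later steps of the spiral, Hadha and Hadhb rose. Hadha was at 231, 414 and 545 CPM in WT-Tg on chow and at 517, 914 and 1146 CPM in D316A-Tg. Hadhb, on the other side of the stretch shown above, was at 31.4, 74.2 and 89.2 CPM in WT-Tg and at 91.3, 163 and 168.9 CPM in D316A-Tg. Every D316A-Tg library of Hadhb lay above every WT-Tg library, and 5 of 6 did for Hadha. The log2 fold changes of the pair were nearly equal, 1.09 for Hadha (SE 0.22, adjusted p = 0.0213) and 1.16 for Hadhb (SE 0.23, adjusted p = 0.0203). The dehydrogenase Hadh, the hydratase Echs1 and the thiolase Acaa2 act on shorter chains, and none was called: their values were 0.92, 0.87 and 0.88, with adjusted p from 0.0544 for Hadh to 0.0675 for Echs1.

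Among auxiliary enzymes 2 of 3 rose, and 1 of 3 in electron transfer. Eci1, an enoyl-CoA isomerase for unsaturated chains, was at 63.1, 133 and 168.5 CPM in WT-Tg on chow and at 160.3, 337 and 375 CPM in D316A-Tg. It rose by 1.16 on the log2 scale (SE 0.25, adjusted p = 0.0232). Decr1, the dienoyl-CoA reductase for polyunsaturated chains, was at 139, 245 and 376 CPM in WT-Tg and at 292, 606 and 655 CPM in D316A-Tg, and rose by 0.99 (SE 0.25, adjusted p = 0.0371). In both genes D316A-Tg library 8 alone reached into the WT-Tg range. Etfdh passes electrons from the flavoprotein to ubiquinone. It was at 74.1, 148 and 193.5 CPM in WT-Tg and at 202, 315 and 366 CPM in D316A-Tg, with no overlap, and rose by 1.03 (SE 0.22, adjusted p = 0.0222). Etfa and Etfb, the flavoprotein itself, had values of 0.84 (adjusted p = 0.0603) and 0.83 (adjusted p = 0.0748).

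The regulator Ppara (chr15:85734983-85802819) had the largest log2 fold change of all members called. It was at 2.60, 8.97 and 15.8 CPM in WT-Tg on chow and at 16.99, 26.97 and 44.6 CPM in D316A-Tg, again with no overlap between the groups. Ppara rose by 1.47 on the log2 scale (SE 0.38, adjusted p = 0.0400). The thioesterases, which release free fatty acid from acyl-CoA, were not called: Acot1 in the cytosol had a value of 1.46 at under 7 CPM in every library (adjusted p = 0.119), and Acot2 in mitochondria 0.48 (adjusted p = 0.163). Hadhb, Etfdh and Ppara were the 3 members whose groups did not overlap, which 1.83% of all genes showed in this direction.

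Of the 7 peroxisomal members 2 rose. Ehhadh, the bifunctional hydratase and dehydrogenase (chr16:21761287-21787807), was at 30.7, 54.1 and 113 CPM in WT-Tg on chow and at 81.7, 153.5 and 240.1 CPM in D316A-Tg. It rose by 1.19 on the log2 scale (SE 0.30, adjusted p = 0.0358). Abcd3, the transporter PMP70 that brings acyl-CoA into peroxisomes (chr3:121758774-121815302), was at 52.5, 89.3 and 129 CPM in WT-Tg and at 112.5, 235 and 278 CPM in D316A-Tg. It rose by 1.20 (SE 0.22, adjusted p = 0.0164), the lowest adjusted p of any member on chow. The highest Ehhadh and Abcd3 values of WT-Tg, in library 6, exceeded 2 and 1 of the D316A-Tg libraries. The thiolase Acaa1b (1.09, adjusted p = 0.0521), the multifunctional enzyme Hsd17b4 (0.78, adjusted p = 0.0948), the fission factor Pex11a (0.72, adjusted p = 0.137), the transporter Abcd2 (0.65, adjusted p = 0.220) and the thiolase Acaa1a (0.36, adjusted p = 0.205) were positive and not called.

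**Figure D2:**
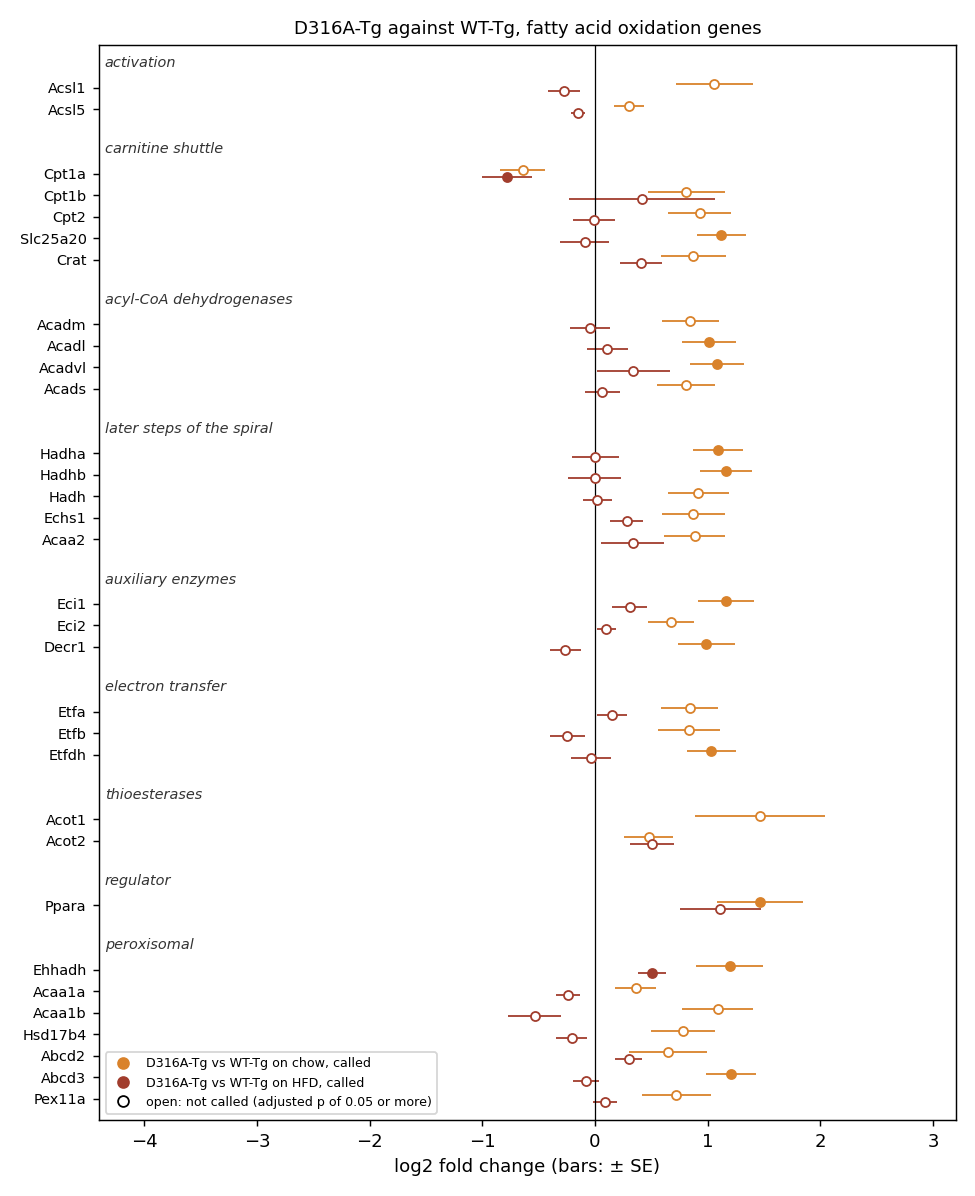
Log2 fold change of D316A-Tg over WT-Tg for each member on chow and on HFD, with bars of 1 SE and filled symbols for an adjusted p below 0.05, ordered by role. On chow 31 of 32 values are above 0, and Cpt1a at -0.64 is the exception. On HFD 17 of 31 are above 0.

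Cell composition moved with these values. The lymphocyte-rich libraries, defined by the widest gap in the B lymphocyte score of a diet, held 4 of the 6 WT-Tg and 2 of the 6 D316A-Tg libraries on chow. Among lymphocyte-rich libraries alone, every D316A-Tg library was above every WT-Tg library for 21 of the 32 members, and 16.9% of all genes did so. Among the other libraries it was 26 members, against 23.3% of all genes, and in both kinds of library at once 19 members, against 9.48%. Those 19 include Slc25a20, Acadl, Acadvl, Hadha, Hadhb, Eci1, Decr1, Etfdh, Ppara, Ehhadh and Abcd3, so all the called ones. The same libraries gave those calls, so the split is no separate check of them. Hadhb, Etfdh and Ppara, whose groups did not overlap at all, had to separate in any split. Cpt1a was below in both kinds, and the share of all genes below was not counted.

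Scores were also taken within each kind of library on chow. In lymphocyte-rich libraries the mitochondrial score was 6.31 to 7.30 in WT-Tg and from 7.36 to 7.84 in D316A-Tg on chow. In the other libraries it was 7.45 to 7.61 in WT-Tg and from 8.14 to 8.42 in D316A-Tg. The peroxisomal score was 5.84 to 6.49 against 6.67 to 7.06 in lymphocyte-rich libraries, and 7.20 to 7.28 against 7.75 to 7.98 in the others. The mitochondrial and peroxisomal ranges did not overlap between genotypes within either kind on chow, with as few as 2 libraries on a side. Among HFD libraries not rich in lymphocytes (5 WT-Tg, 2 D316A-Tg), 2 of 31 members were above and 7 below, and 9.41% of all genes were above. Among the lymphocyte-rich ones, with 1 WT-Tg library, 8 were above and 4 below, and 22.1% of all genes were above. The share of all genes below was not counted in either kind, so the members below have no background beside them. The part of lymphocyte content in the members' values was not tested by this split.

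The mature adipocyte score was 9.58, 10.18 and 11.31 in WT-Tg on chow and 9.87, 11.38 and 11.64 in D316A-Tg. The brown adipocyte score was 2.09, 3.75 and 4.49 in WT-Tg and 4.53, 4.96 and 5.40 in D316A-Tg, with no overlap, and 4 of its 12 tested genes rose. Ucp1, the uncoupling protein of brown fat, had a median of 18.96 CPM in WT-Tg libraries and 251 CPM in those of D316A-Tg. The skeletal muscle score had a median of 3.78 in WT-Tg and 0.83 in D316A-Tg. In D316A-Tg 6 of 12 smooth muscle and pericyte and 3 of 12 endothelial genes fell, with median log2 fold changes of -0.83 and -0.76. Of 12 macrophage genes none was called and 10 had negative values, with a median of -0.69. The part of brown adipocyte, smooth muscle, endothelial and macrophage content in the members' values was not tested. With the mature adipocyte score as a covariate 25 members were called, 24 of them higher. With the B lymphocyte score as a covariate 26 members were called, 25 of them higher. With the muscle score as a covariate none was called, and 27 were higher and 1 lower at an unadjusted p under 0.05. Over all genes these covariates gave, in the order named, 2951, 3761 and 75 calls, against 1303 without a covariate.

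These calls rest on few libraries. Leaving out D316A-Tg library 7, 9 or 12 left no member called, leaving out WT-Tg library 3 or D316A-Tg library 10 left 1, and leaving out D316A-Tg library 8 or WT-Tg library 6 gave 25 and 20. Calls over all genes ran from 140 to 3360 when 1 library was left out. In the 3 analyses with no call, 26 or 27 members were higher and 1 lower at an unadjusted p under 0.05. Every one of the 11 calls was lost without at least 1 library, with the highest adjusted p from 0.0536 for Abcd3 to 0.103 for Decr1.

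**Figure D3:**
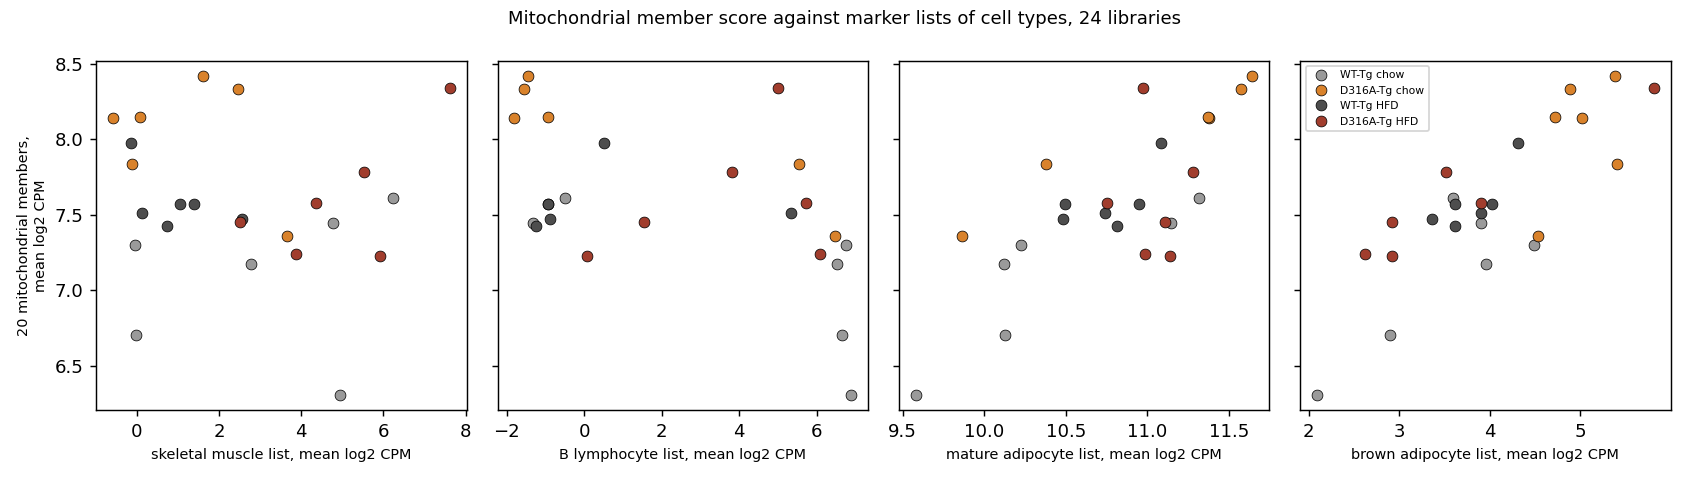
Mean log2 CPM of the 20 mitochondrial members against the scores of skeletal muscle, B lymphocyte, mature adipocyte and brown adipocyte genes in the 24 libraries, coloured by group. D316A-Tg library 7 on HFD stands at the upper right of the muscle panel (7.61) and of the brown adipocyte panel (5.81).

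Other genes of the pathway were examined on chow as well. Of 99 further genes of fatty acid uptake, oxidation, peroxisome assembly and regulation, 93 were tested, 16 rose and none fell, and the median log2 fold change was 0.63. Background calls were 5.30% higher and 3.25% lower. Among regulators 4 of 18 rose: the coactivators Ppargc1b (1.22, SE 0.14, adjusted p = 0.00314) and Ppargc1a (1.04, SE 0.22, adjusted p = 0.0235), the pyruvate dehydrogenase kinase Pdk4 (1.45, adjusted p = 0.0367) and the lipid droplet protein Plin5 (1.29, adjusted p = 0.0453). Pparg, the adipocyte receptor, did not pass (0.24, adjusted p = 0.638). In uptake and activation 2 of 13 rose, the medium-chain synthetase Acsm3 (1.72, adjusted p = 0.00499) and the fatty acid binding protein Fabp5 (1.09, adjusted p = 0.0326). Among mitochondrial genes 5 of 28 rose, including the thioesterase Acot13 (0.88, adjusted p = 0.0198) and Acacb, the mitochondrial form of acetyl-CoA carboxylase (1.20, adjusted p = 0.0357). Among peroxisomal oxidation genes 3 of 21 rose, led by the enoyl-CoA reductase Pecr (0.90, adjusted p = 0.0363). Of 13 peroxins, the proteins that assemble peroxisomes, Pex3 (0.84) and Pex13 (0.93) rose.

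On HFD the genotypes differed in only 2 members. Ehhadh rose and Cpt1a fell in D316A-Tg compared with WT-Tg, and the other 29 members tested were not called. Acot1 was too low to be tested, leaving 31. The median log2 fold change was 0.04 for mitochondrial and -0.08 for peroxisomal members, beside 0.01 for all genes, and 17 of the 31 values were positive.

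In this comparison edgeR called 4.51% of all genes higher and 3.96% lower, so 1 member of 31 in each direction is below the background share. At an unadjusted p under 0.05, 4 members were higher and 4 lower. The mitochondrial score was 7.42, 7.54 and 7.98 in WT-Tg and 7.22, 7.52 and 8.34 in D316A-Tg on HFD. The peroxisomal score was 7.17, 7.24 and 7.51 in WT-Tg and 7.06, 7.20 and 7.60 in D316A-Tg. The D316A-Tg libraries lay on both sides of the WT-Tg range.

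Cpt1a was at 187, 215 and 235 CPM in WT-Tg on HFD and at 69.2, 114 and 211.5 CPM in D316A-Tg. D316A-Tg libraries 7 to 11 were at 69.2, 89.5, 116, 145 and 112 CPM, all below the lowest WT-Tg library, and library 12 was at 211.5 CPM. Cpt1a fell by 0.78 on the log2 scale (SE 0.22, adjusted p = 0.0484), 1.72-fold. On HFD its ratio to Cpt2 had a median of 1.01 in WT-Tg and 0.512 in D316A-Tg.

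Ehhadh was at 42.8, 46.7 and 51.6 CPM in WT-Tg on HFD and at 51.9, 62.8 and 95.5 CPM in D316A-Tg. All 6 D316A-Tg libraries were above all 6 WT-Tg libraries, although library 11 at 51.9 CPM was only just so. It was the 1 member of 31 whose groups did not overlap in this direction, a pattern of 1.76% of all genes. Ehhadh rose by 0.51 on the log2 scale (SE 0.12, adjusted p = 0.0336), 1.42-fold.

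Ppara was at 5.67, 9.70 and 16.1 CPM in WT-Tg on HFD and at 9.93, 22 and 36.3 CPM in D316A-Tg. Libraries 7, 8 and 9 were above every WT-Tg library, and libraries 10, 11 and 12 within their range. The log2 fold change was 1.11 (SE 0.36), and the adjusted p of 0.0692 missed the threshold. The 11 members that rose on chow had HFD values from -0.26 for Decr1 to 1.11 for Ppara. Slc25a20 (-0.09, SE 0.21), Hadha (0.0045, SE 0.21), Hadhb (-0.0003, SE 0.24), Etfdh (-0.04, SE 0.18), Abcd3 (-0.08, SE 0.12) and Acadl (0.11, SE 0.18) lay closest to 0, and Acadvl (0.34, SE 0.32) and Eci1 (0.31, SE 0.16) were positive and not called. The thiolase Acaa1b had a negative value of -0.53 (SE 0.24, adjusted p = 0.148).

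Markers of several other cell types moved with genotype on HFD. The skeletal muscle score was -0.15, 0.90 and 2.57 in WT-Tg and 2.52, 4.95 and 7.61 in D316A-Tg, and all 26 muscle genes tested were called higher. The B lymphocyte score had medians of -0.90 and 4.41. In D316A-Tg 4 of 12 macrophage, 5 of 12 endothelial and 3 of 10 fibroblast and progenitor genes fell, with median log2 fold changes of -1.11, -0.69 and -0.73. The part of these 3 cell types in the members' values was not tested. The muscle creatine kinase Ckm had a median of 3.72 CPM in WT-Tg libraries and 208 CPM in those of D316A-Tg. D316A-Tg library 7, with the highest muscle score, held the lowest Cpt1a and the highest Ehhadh value of its group, and was the highest of its group for 23 of the 32 members. Library 12, with the lowest muscle score at 2.52, held the highest Cpt1a value. Library 10, with the next highest muscle score after library 7 at 5.91, held the next highest Cpt1a value after library 12. The part of muscle content in the Cpt1a and Ehhadh values was not tested. With the muscle score as a covariate no member was called, and none at an unadjusted p under 0.05 either. With the B lymphocyte score as a covariate no member was called, and 2 were higher and 2 lower at an unadjusted p under 0.05. Over all genes the muscle score gave 0 calls and the B lymphocyte score 26, against 1241 without a covariate. Cpt1a turned to 0.27 (adjusted p = 0.746) with the muscle and B lymphocyte scores together.

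The HFD calls also rest on single libraries. Ehhadh was called in 6 of the 12 analyses that left out 1 library, with adjusted p up to 0.0716 without WT-Tg library 5. Cpt1a was called in 2 of the 12, with adjusted p up to 0.0992 without D316A-Tg library 9. No member was called without WT-Tg library 1, 2, 4, 5 or 6 or without D316A-Tg library 9, and 6 were called without D316A-Tg library 12. Calls over all genes ran from 326 to 3919 in these 12 analyses. In the 6 analyses with no call, 2 to 6 members were higher and 1 to 3 lower at an unadjusted p under 0.05.

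Background calls between genotypes on HFD were 4.51% higher and 3.96% lower. Of the 94 other pathway genes tested on HFD, 13 rose and 6 fell, with a median of 0.06. They included Acsm3 (2.93, adjusted p = 0.0252), the dehydrogenase Hsd17b10 (0.52, adjusted p = 0.0146), Ppargc1b (1.07, adjusted p = 0.0470) and the transcription factor Klf15 (0.98, adjusted p = 0.0336), which rose. The ethylmalonyl-CoA decarboxylase Echdc1 (-0.75, adjusted p = 0.0226), the fatty acid transporter Slc27a4 (-0.33, adjusted p = 0.0324) and the hormone Fgf21 (-0.97, adjusted p = 0.0365) fell. Ppargc1a (0.92, adjusted p = 0.106) and Pdk4 (1.21, adjusted p = 0.0804) were not called.

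**Figure D4:**
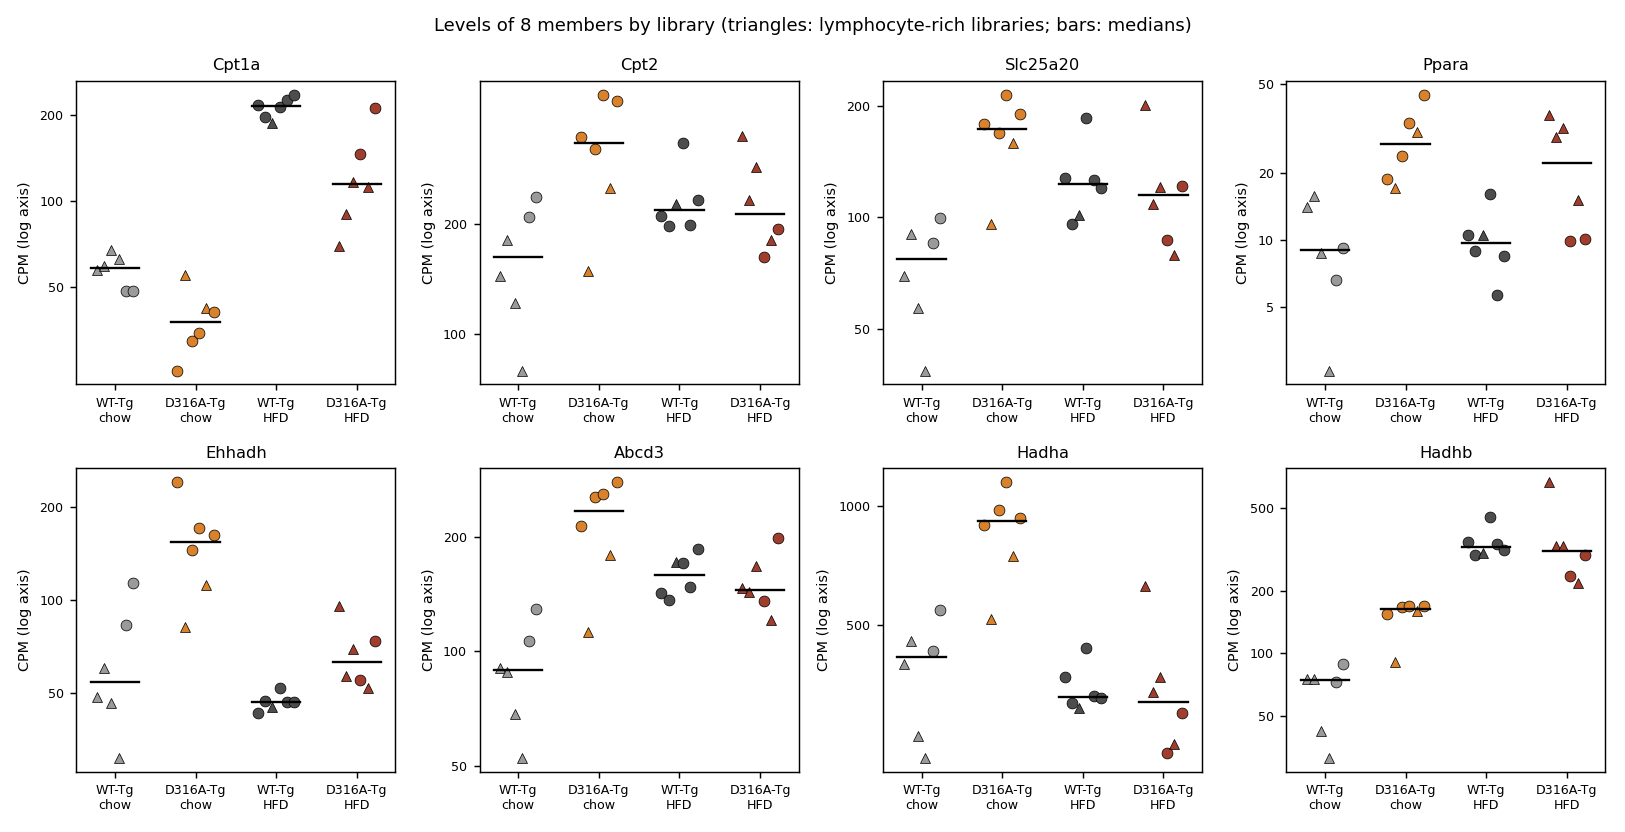
CPM of 8 members in each library by group, on a log axis, with bars for medians and triangles for lymphocyte-rich libraries. Cpt1a is the member lower in D316A-Tg on both diets, with medians of 58.1 and 37.6 CPM on chow and 215 and 114 CPM on HFD, and Hadhb is higher in the HFD table than in the chow table, with medians of 74.2 and 324 CPM in WT-Tg and 163 and 312 CPM in D316A-Tg.

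The D316A effect itself differed between the diets for 11 of the 32 members, each with a lower value on HFD than on chow. These 11 were Acsl1, Acsl5, Slc25a20, Hadha, Hadhb, Decr1, Etfb, Etfdh, Acaa1b, Hsd17b4 and Abcd3. The comparison takes each effect within its own count table, so a constant factor between the tables drops out of it.

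Over 16072 genes, edgeR called 6.86% lower in this difference (HFD minus chow). The median difference on the log2 scale was -0.86 for mitochondrial members, 6 of 20 called, and -0.68 for peroxisomal members, 3 of 7 called, beside 0.07 for all genes. At an unadjusted p under 0.05, 21 members were lower and none higher. DESeq2 called 18 lower and voom 25, and neither called any member higher. Of the 16072 genes voom called 10319, in either direction. The DESeq2 count over all genes is not given here, so its 18 members have no share beside them.

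Acaa1b had the largest difference of the members called, -1.62 (SE 0.40, adjusted p = 0.0135): its D316A effect was 1.09 on chow and -0.53 on HFD. Abcd3 had the lowest adjusted p, with -1.27 (SE 0.25, adjusted p = 0.00468). Acsl1 differed by -1.33 (SE 0.37, adjusted p = 0.0242), its D316A effect being 1.06 on chow and -0.28 on HFD. Decr1 (-1.24, adjusted p = 0.00943), Slc25a20 (-1.20, adjusted p = 0.0179), Hadhb (-1.15, adjusted p = 0.0312), Hadha (-1.08, adjusted p = 0.0264), Etfb (-1.07, adjusted p = 0.0342) and Etfdh (-1.06, adjusted p = 0.0197) differed by similar amounts. Hsd17b4 (-0.98, adjusted p = 0.0451) and Acsl5 (-0.44, adjusted p = 0.0475) were closest to the threshold.

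Cpt1a and Ppara did not follow. The difference for Cpt1a was -0.13 (SE 0.30, adjusted p = 0.792), with effects of -0.64 on chow and -0.78 on HFD. Ppara had effects of 1.47 and 1.11, and its difference of -0.33 was not called. For Ehhadh the effects were 1.19 and 0.51, and the difference of -0.68 was not called. These 3 values have errors wide enough that neither an equal nor a smaller effect on HFD can be stated.

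Acsl1, Slc25a20, Decr1, Etfdh, Acaa1b and Abcd3 were called in all 24 analyses that left out 1 library, and Hsd17b4 in 6 of them. The muscle score, which had lower medians in D316A-Tg on chow and higher ones in D316A-Tg on HFD, moved with this difference. With that score as a covariate no member was called, and 20 were lower at an unadjusted p under 0.05. With the B lymphocyte score 3 were called, and without all lymphocyte-rich libraries 18. Over all genes the muscle score gave 1 call and the B lymphocyte score 1265, against 2080 without a covariate. The count over all genes without lymphocyte-rich libraries is not given here.

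Background calls for the difference of effects were 6.86% lower and 6.08% higher. Among 94 other pathway genes 19 had a smaller D316A effect on HFD and none a larger one, with a median of -0.45. They included 6 of 13 peroxins, among them Pex16 (-1.46, adjusted p = 0.00655), Pex13 (-1.13, adjusted p = 0.00835) and Pex3 (-0.84, adjusted p = 0.0206). Echdc1 (-2.11, adjusted p = 0.00244), Fabp5 (-1.94, adjusted p = 0.00554), the coenzyme A diphosphatase Nudt7 (-1.61, adjusted p = 0.00357), the octanoyltransferase Crot (-0.62, adjusted p = 0.0142) and the sterol carrier Scp2 (-0.99, adjusted p = 0.0361) were also among them. The coactivators Ppargc1a (-0.11, adjusted p = 0.877) and Ppargc1b (-0.14, adjusted p = 0.800) were not called.

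Between diets, 13 of the 32 members rose and 2 fell in WT-Tg tissue on HFD compared with chow. The rises were led by Hadhb, Cpt1a, Acaa1b, Acsl1 and Hsd17b4, and the 2 that fell were Cpt1b and the mitochondrial thioesterase Acot2. Diet, age, base-calling version and count table all changed together here, so they cannot be told apart, and the comparison shares its chow and HFD libraries with those above.

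In WT-Tg, 28.7% of all genes were called higher and 33.3% lower on HFD. The median log2 fold change was 0.39 for mitochondrial members, 8 of 20 higher and 2 lower, and 0.78 for peroxisomal members, 4 of 7 higher, beside -0.06 for all genes. In 10 members every HFD library was above every chow library, which 20.2% of all genes showed. The lymphocyte content fell at the same time: the median B lymphocyte score was 6.59 on chow and -0.90 on HFD. Skeletal muscle genes were lower as well, 23 of the 26 tested being called, and the median muscle score was 3.78 on chow and 0.90 on HFD. The fall of Cpt1b, the muscle isoform, stands beside that change; with the muscle score as a covariate it was -1.30 on the log2 scale, with an adjusted p of 0.0239 by edgeR. Without the lymphocyte-rich libraries, which leaves 2 WT-Tg libraries on chow, 13 members were called but only 6 of them higher, 7 of the 13 were among the 15, and the median of the mitochondrial members was -0.019.

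Cpt1a rose 3.56-fold in WT-Tg, from a median of 58.1 CPM on chow to 215 CPM on HFD (log2 1.83, SE 0.11, adjusted p = 4.306e-08). Its lowest HFD library, at 187 CPM, was far above its highest chow library, at 67.2 CPM. Acsl1 was at 3520, 3702 and 4619 CPM on HFD, above all of its chow values, and rose by 1.40 (SE 0.28, adjusted p = 0.00106). Slc25a20 (0.72, adjusted p = 0.0128), Acadm (0.76, adjusted p = 0.0157), Acads (0.55, adjusted p = 0.0452), Decr1 (0.83, adjusted p = 0.00570), Etfa (0.74, adjusted p = 0.0112) and Etfdh (0.62, adjusted p = 0.0236) rose less. Cpt2 (0.47, adjusted p = 0.0949) was not called.

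In WT-Tg 4 of the 7 peroxisomal members rose. Acaa1b was at 13.3, 22.02 and 49.9 CPM on chow and at 71.5, 84.9 and 97.2 CPM on HFD, without overlap, and rose by 1.64 (SE 0.28, adjusted p = 0.000347). Hsd17b4 was at 127, 185.5 and 349 CPM on chow and at 441, 475 and 589 CPM on HFD, and rose by 1.13 (SE 0.24, adjusted p = 0.00139). Abcd3 (0.78, adjusted p = 0.00253) and Abcd2 (0.86, adjusted p = 0.0135), both transporters of the peroxisomal membrane, rose as well. Ehhadh had a negative value of -0.50 that was not called (adjusted p = 0.0936), and Acaa1a, near-identical in its coding sequence to Acaa1b, had a value of 0.06 (adjusted p = 0.723).

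In D316A-Tg tissue 10 of the 32 members fell on HFD compared with chow and 2 rose. The 2 that rose were Cpt1a and Hadhb, and the 10 that fell were Acsl5, Acadl, Hadha, Echs1, Eci1, Etfb, Acot1, Ehhadh, Acaa1a and Pex11a. Background calls were 14.1% higher and 16.7% lower. The median log2 fold change was -0.50 for mitochondrial members, 2 of 20 higher and 5 lower, and -0.53 for peroxisomal members, 3 of 7 lower, beside -0.03 for all genes. Brown adipocyte markers were lower at the same time: 3 of 12 tested genes fell, the median log2 fold change was -0.91, and the median score was 4.96 on chow and 3.21 on HFD. Their part in the members' values was not tested.

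Hadha fell by 1.33 on the log2 scale in D316A-Tg (SE 0.25, adjusted p = 0.00181), from 914 to 319 CPM at the median. Ehhadh fell by 1.21 (SE 0.23, adjusted p = 0.00189), from 153.5 to 62.8 CPM, and Eci1 by 1.20 (SE 0.23, adjusted p = 0.00195), from 337 to 122 CPM. In each of these 3 genes D316A-Tg library 7 on HFD was the only one inside the chow range. Acot1, at medians of 1.73 CPM on chow and 0.39 CPM on HFD, fell by 2.63 (SE 0.55, adjusted p = 0.00351). Its chow values include 1 of 6.91 CPM in library 8, and its near-identity to Acot2 leaves its counts uncertain. Acsl5 fell by 0.54 (SE 0.12, adjusted p = 0.00541).

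Cpt1a rose 3.16-fold in D316A-Tg (log2 1.66, SE 0.27, adjusted p = 0.000547), from 37.6 to 114 CPM at the median, with every HFD library above every chow library. Cpt1a was thus higher on HFD in both genotypes and lower in D316A-Tg on both diets, except that the chow difference did not pass the test. Acsl1, which rose in WT-Tg, had a value of 0.03 in D316A-Tg (SE 0.27, adjusted p = 0.946), and Acaa1b one of -0.01 (SE 0.29, adjusted p = 0.981). The tests of these 2 contrasts against each other are the differences of the D316A effect given earlier.

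Some of these diet calls held without any single library and others did not. In WT-Tg Acsl1, Cpt1a, Slc25a20, Acadm, Hadhb, Decr1, Etfa, Acaa1b, Hsd17b4, Abcd2 and Abcd3 were called in 12 of 12 such analyses, and in D316A-Tg Acsl5, Cpt1a, Hadha, Hadhb, Eci1, Acot1 and Ehhadh were. In WT-Tg Etfdh was called in 11 of 12, Cpt1b and Acot2 in 6, and Acads in 2. The highest adjusted p was 0.0896 for Cpt1b, without WT-Tg library 2 on chow, 0.0729 for Acot2, without WT-Tg library 1 on HFD, and 0.103 for Acads, without WT-Tg library 4 on HFD. In D316A-Tg Acaa1a was called in 4 of 12, Echs1 and Etfb in 3, and Acadl and Pex11a in 2. Echs1 had an adjusted p of 0.111 and Pex11a of 0.109 without D316A-Tg library 10 on HFD. The number of members called in D316A-Tg ran from 7 to 21, beside 3598 to 5129 calls over all genes. D316A-Tg tissue gained muscle transcripts on HFD, 22 of the 28 muscle genes tested being called higher, and with the muscle score as a covariate 5 members were called. Without the lymphocyte-rich libraries 27 were, 2 of them higher. Over all genes these settings gave 1964 and 7112 calls, against 4546.

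**Figure D5:**
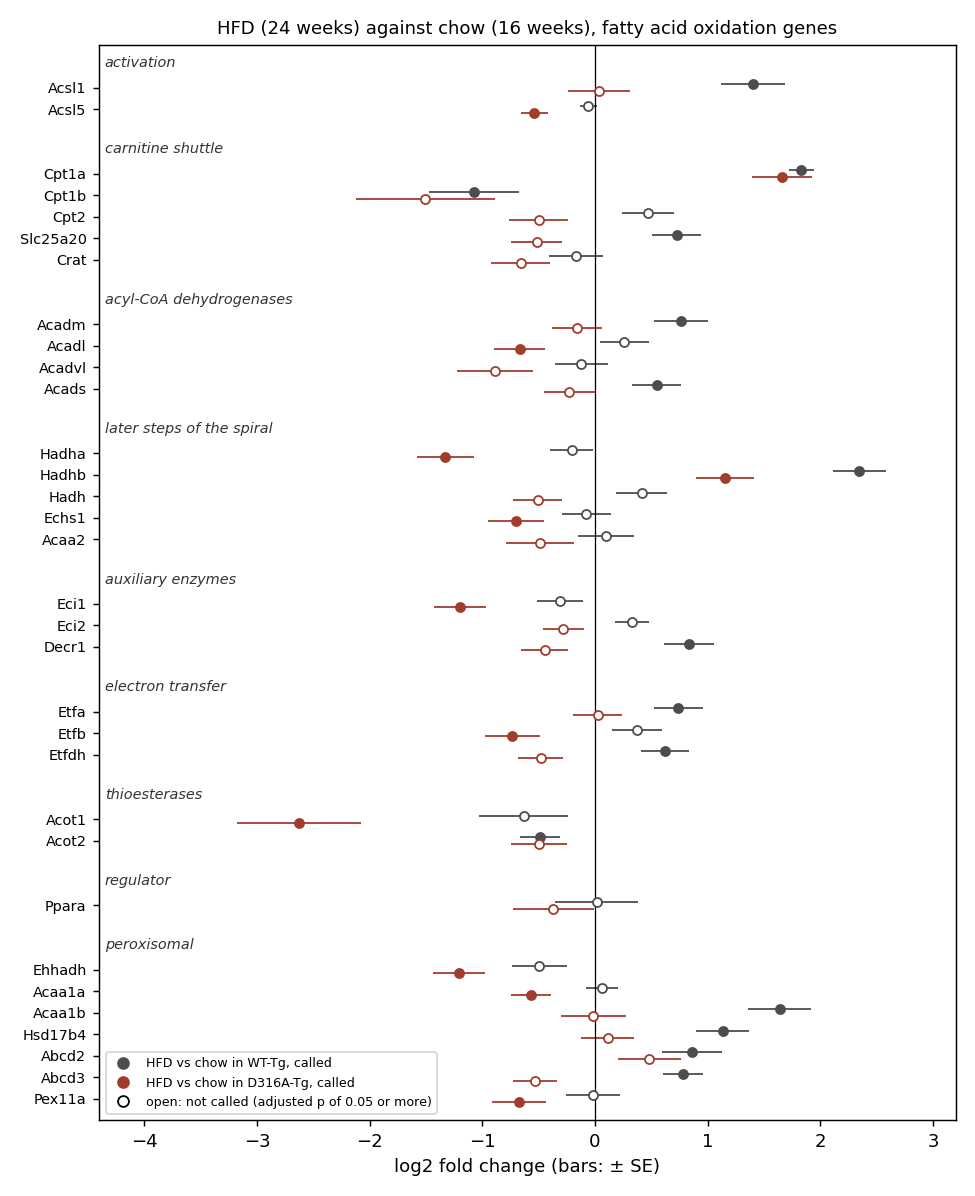
Log2 fold change of HFD over chow for each member in WT-Tg and in D316A-Tg, with bars of 1 SE and filled symbols for an adjusted p below 0.05, ordered by role. Cpt1a (1.83 and 1.66) and Hadhb (2.34 and 1.15) are the 2 members above 0 and called in both genotypes.

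Hadhb stood apart between the diets. It rose by 2.34 on the log2 scale in WT-Tg (SE 0.24, adjusted p = 4.492e-06) and by 1.15 in D316A-Tg (SE 0.26, adjusted p = 0.00497), while Hadha had a value of -0.21 in WT-Tg (adjusted p = 0.370) and fell in D316A-Tg. The products of the pair form 1 complex. The ratio of Hadhb to Hadha CPM lay between 0.136 and 0.213 in all 12 chow libraries and between 0.871 and 1.06 in all 12 HFD libraries. Within a diet the genotypes were alike, with medians of 0.165 and 0.175 on chow and of 0.970 and 0.978 on HFD. No annotated exon of another gene overlaps Hadhb. Whether the step in the ratio belongs to diet, age or the counting of the 2 tables cannot be told apart. Each comparison of genotypes stays within 1 table.

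The other pathway genes were examined between diets as well. In WT-Tg 35 of 94 rose and 17 fell, with a median of 0.22, beside 28.7% and 33.3% of all genes. In D316A-Tg 7 rose and 20 fell, with a median of -0.28, beside 14.1% and 16.7% of all genes. In either direction 62.0% of all genes were called in WT-Tg and 30.8% in D316A-Tg. In WT-Tg Fabp5 (1.57, adjusted p = 5.128e-06), the nuclear receptor Esrrg (2.53, adjusted p = 1.461e-06), Scp2 (1.57, adjusted p = 0.000134) and Fgf21 (2.65, adjusted p = 0.000489) rose. Acsm3 fell by 3.42 (adjusted p = 1.695e-05) and Acacb by 2.25 (adjusted p = 1.327e-05). In D316A-Tg Acacb fell by 2.14 (adjusted p = 0.00153) and Acsm3 by 2.24 (adjusted p = 0.00998). Ppargc1b fell in both, by 1.11 (adjusted p = 0.000256) and by 1.29 (adjusted p = 0.00406), while Ppargc1a was called in neither, at 0.13 and -0.02.

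By group medians, mitochondrial and peroxisomal members kept nearly the same distance in the genotypes. The mitochondrial minus the peroxisomal score was 0.25, 0.48 and 0.84 in WT-Tg on chow and 0.35, 0.45 and 0.78 in D316A-Tg on chow. On HFD it was 0.19, 0.26 and 0.47 in WT-Tg and -0.15, 0.27 and 1.09 in D316A-Tg. The medians differed by less than the spread of the libraries within a group between the genotypes on either diet. They pool lymphocyte-rich and other libraries, which the genotypes held in unequal numbers. On chow the difference was 0.47 to 0.84 in lymphocyte-rich WT-Tg libraries and 0.69 and 0.78 in those of D316A-Tg. In the other chow libraries it was 0.25 and 0.33 in WT-Tg and from 0.35 to 0.49 in D316A-Tg, without overlap. Both extremes of the D316A-Tg HFD group were single libraries: library 7 at 1.09, with the highest muscle and brown adipocyte scores of the group, and library 12 at -0.15. Hadhb, whose ratio to Hadha differs between the tables, is part of the mitochondrial score.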

How the data were processed

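The authors deposited 2 tables of raw counts, whole numbers of reads for each gene, with 1 table per diet. Per the labels' protocols, RNA of RIN 7 or more went into Illumina's TruSeq stranded mRNA protocol, and base calling used bcl2fastq 2.20.0.422 (chow libraries) or bclfastq 2.16.0.10 (HFD libraries). STAR 2.4.1, FastQC, DESeq2 and the mm10 build are listed in the submitters' processing notes. The sources used here do not give the counting tool, its annotation or its use of strand.

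The members and all gene lists were chosen with earlier results of these data known. All 32 members are named. Other pathway genes are named by the lowest adjusted p among those called, up to 4 of a list. Called or not, Ppargc1a is given in every comparison, Pdk4 between genotypes on each diet and Pparg between genotypes on chow. A result that is withheld is not reported here.

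Groups follow the labels, with 6 libraries each and 13254536 to 22748132 counts a library. Genes were tested with edgeR 4.0.16 in R 4.3.3 (robust quasi-likelihood F test, TMM scaling, filterByExpr, Benjamini-Hochberg adjustment over all genes tested, threshold 0.05), within a diet for genotype and on the genes in both tables otherwise. Log2 CPM used a prior count of 2. SE is the log2 fold change divided by the square root of F. Fits were checked on simulated counts. Coordinates are from GENCODE M21 on GRCm38, 1-based. Alternatives were other scalings and filters, no robust step, DESeq2 1.42.0, voom of limma 3.58.1 with quality weights, all 24 libraries in 1 fit, marker scores as covariates, leaving out lymphocyte-rich or single libraries, and a replicate block. Replicate libraries differed by more than sampling noise (lowest chi-square per degree of freedom 14.4), so none was merged.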

Additional observations from a re-analysis of the deposited data

Results flagged for a closer look

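Single libraries stood far from the other 5 of their group in 24 of the 136 sets of values examined (32 members and 2 scores in 4 groups), judged by the gap to the nearest library against the range of the group. Chance alone gives this in about 1 of 20 sets, and members of 1 library are not independent of each other.

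On HFD, WT-Tg library 4 was the highest of its group for Cpt2 (333.3 CPM), Slc25a20 (184.9 CPM), Crat (402 CPM), Acadm (1106 CPM), Acadvl (479.8 CPM), Acads (305 CPM), Hadhb (454 CPM), Hadh (716 CPM), Decr1 (624 CPM), Etfa (605 CPM), Etfb (462 CPM) and Pex11a (85.0 CPM). Its mitochondrial score was 7.98. It had the lowest muscle score of its group, -0.15, and the highest brown adipocyte score, 4.31.

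D316A-Tg library 7 on HFD was the highest of its group for Cpt1b (4.69 CPM), Slc25a20 (200.5 CPM), Acadl (872 CPM), Acadvl (923 CPM), Hadha (628 CPM), Hadhb (664 CPM), Acaa2 (640.4 CPM) and Etfdh (357 CPM). It had the highest muscle score (7.61) and the highest brown adipocyte score (5.81) of the 24 libraries. The part of these scores in its values was not tested. D316A-Tg library 12 on HFD was the highest of its group for Acaa1b, at 112 CPM. D316A-Tg library 8 on chow was the lowest of its group for Hadhb, at 91.3 CPM, and the highest for Acot1, at 6.91 CPM.

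The effect of the D316A subunit differed between the diets, by the test of the difference in edgeR, for 11 members. Age changed together with diet. On the log2 scale (HFD minus chow) the differences were -1.33 for Acsl1, -0.44 for Acsl5, -1.20 for Slc25a20, -1.08 for Hadha, -1.15 for Hadhb and -1.24 for Decr1. They were -1.07 for Etfb, -1.06 for Etfdh, -1.62 for Acaa1b, -0.98 for Hsd17b4 and -1.27 for Abcd3.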

How the results depend on the processing

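The counts of called members depended on the model more than the directions did. On chow, 11 members were called, against 25 with DESeq2, 29 with voom, 26 with the B lymphocyte score, 0 with the muscle score, 22 without lymphocyte-rich libraries, 28 with all 24 libraries in 1 fit and 25 with the mature adipocyte score, the last an alternative chosen after seeing the data, as was that of muscle and B lymphocyte scores together. Over all genes the same settings gave 2977, 10826, 3761, 75, 2305, 3615 and 2951 calls against 1303, and no filter gave 524. On HFD, 2 members were called, against 6 with voom, 1 with no filter or with all 24 libraries, and 0 with the muscle score, the B lymphocyte score, both, the mature adipocyte score or without lymphocyte-rich libraries. Over all genes these gave 4312 (voom), 795 (no filter), 0 (muscle), 26 (B lymphocyte), 0 (both), 414 (adipocyte) and 0 (without lymphocyte-rich libraries) against 1241, and DESeq2 gave 2802.

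For the difference of the D316A effect 11 members were called, against 18 with DESeq2, 25 with voom, 0 with the muscle score, 3 with the B lymphocyte score, 18 without lymphocyte-rich libraries, 20 with the adipocyte score and 0 with muscle and B lymphocyte scores together. Over all genes, voom gave 10319 calls, the muscle score 1, the B lymphocyte score 1265, the adipocyte score 4114 and both scores 31, against 2080. The counts over all genes with DESeq2 and without lymphocyte-rich libraries are not given here. In WT-Tg, 15 members differed between diets and 6 with both scores (5747 against 9304 genes). In D316A-Tg, 12 differed, against 25 with voom, 7 with no filter, 5 with the muscle score, 27 without lymphocyte-rich libraries and 19 with the adipocyte score. Over all genes these gave 7612 (voom), 1964 (muscle), 7112 (without lymphocyte-rich libraries) and 7124 (adipocyte), and the B lymphocyte score 6973, against 4546. The cause of these changes was not tested.

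Medians moved as follows. On HFD the mitochondrial median of 0.04 was -0.30 with the muscle score and -0.35 with both scores, and the peroxisomal median of -0.08 was 0.11 and 0.30. For the difference of effects the peroxisomal median of -0.68 was -1.21 with voom, -0.20 with the B lymphocyte score and -0.064 with both. In WT-Tg between diets the mitochondrial median of 0.39 was -0.019 without lymphocyte-rich libraries and -0.062 with both scores, and the peroxisomal median of 0.78 was 0.25 without those libraries. In D316A-Tg between diets the mitochondrial median of -0.50 was -1.07 without lymphocyte-rich libraries, and the peroxisomal median of -0.53 was -0.10 with both scores. Of single members, Cpt1a on HFD turned to 0.27 with both scores (adjusted p = 0.746), Pex11a in WT-Tg between diets to 0.34 with voom (adjusted p = 0.0327), and Etfa in D316A-Tg between diets to -0.38 without lymphocyte-rich libraries (adjusted p = 0.0228).

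Leaving out each library gave 0 to 25 called members on chow (140 to 3360 genes) and 0 to 6 on HFD (326 to 3919 genes). For the difference of effects it gave 6 to 20 members (1368 to 4304 genes). Between diets it gave 12 to 16 members in WT-Tg (8613 to 10263 genes) and 7 to 21 in D316A-Tg (3598 to 5129 genes). With the replicate number as a block, 12 members (12 higher) differed between diets in WT-Tg and 9 (2 higher) in D316A-Tg, with 8380 and 4406 genes called and medians of 0.46 and -0.53 for mitochondrial and 0.82 and -0.50 for peroxisomal members. The main tests do not pair libraries by number, as the labels do not say that a number is the same mouse on both diets. Deviations of same-numbered libraries correlated from -0.369 to 0.610, and 4 of 12 correlated best with their own number. Cell content also enters these deviations, so the correlations cannot decide whether the libraries are paired. The spread between libraries, not counting depth, limits these values, except for Acot1 and Cpt1b, which are below 7 CPM in every library.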
